A study of Mus musculus with 6 samples.

Results

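Basement membranes are thin sheets of extracellular matrix that lie under epithelia and around several other cell types, and integrins and dystroglycan are the cell surface receptors that hold cells to them. The genes described here are those whose symbols name laminin chains, type IV collagen chains, nidogens and integrin subunits, together with Hspg2, Agrn, Col18a1, Sparc, the prolyl hydroxylase genes P4ha1 and P4ha2, and the dystroglycan gene Dag1. The rule used symbols only and no measured value, and it found 49 of the 23238 symbols in the count files. They comprised 25 genes for matrix proteins and the enzymes that modify them, 23 receptor genes, and Col4a3bp. Col4a3bp matched only by its name, since it encodes a ceramide transfer protein, and it is kept apart from the other groups.

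The data were 3′ RNA tag libraries (QuantSeq, a method that reads the end of a transcript next to its poly(A) tail) from cells labelled as 129/Ola mouse embryonic stem cells. A stable line carrying EGFP served as control, and the other stable line carried EWS-OCT4A, in which EWS is fused to OCT-4, tagged with GFP. Both lines are labelled Niwa in the culture notes, and each gave 3 libraries. Any other difference between these lines cannot be told apart from the effect of the fusion. All 6 came from cells in stem cell medium with LIF that had received doxycycline at 1 µg/ml to lower their own OCT-4, so no library shows either line without doxycycline. Whether a line is 1 clone, what drives the transgenes, and whether replicates are separate cultures is not stated in the labels, so p-values measure only the spread between these libraries, which may be technical. A gene that "rose" below was called higher with EWS-OCT4 than with EGFP, and one that "fell" was called lower.

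Laminins are cross-shaped proteins built from an alpha, a beta and a gamma chain, and they form the sheet that touches the cell. Type IV collagen forms a second, covalently linked network, and nidogens, perlecan (Hspg2) and agrin (Agrn) tie the networks to each other and to the cell. Integrins are pairs of an alpha and a beta subunit that bind these proteins outside the cell and the actin cytoskeleton inside it. In the early mouse embryo, the trophoblast, the epiblast and the primitive endoderm all lie on basement membranes, and laminin and its integrin receptors are among the first adhesion proteins that the embryo makes.

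The series as a whole sets the frame for these genes. Depth ran from 10978025 to 14935887 counts per library, and levels are CPM, the count of a gene in a library of standard size, scaled by TMM, with 1 count worth 0.06503 to 0.0924 CPM. The ribosomal RNA precursor Rn45s took 5.85 to 6.44% of counts in the EGFP libraries and 7.36 to 10.5% in the EWS-OCT4 libraries. Replicate 3 stood apart from replicates 1 and 2 in both lines, since chi-square over its degrees of freedom was 23.7 to 32.3 for pairs with replicate 3 and 3.96 and 4.21 for the other pairs, so results are also given from replicates 1 and 2 alone where that changes them. All 12 markers of naive stem cells were called higher in the EWS-OCT4 line, where their summed level was 6166 to 6792 CPM against 466 to 627 CPM in the EGFP line, so defining markers of the labelled cell type were low in the control libraries. All 17 trophoblast markers were called lower, with sums of 9269 to 10394 CPM in the EGFP line and 261 to 298 CPM in the EWS-OCT4 line, in which Plac1, Prl3d1 and Tpbpa were at 0. Of the tested markers, 6 of trophoblast and 2 of stem cells reached the level of the count filter in 1 line only, so these had to differ.

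Markers of 3 other groups of cells were summed in the same way. The 16 primitive and parietal endoderm markers summed to 112 to 133 CPM in the EGFP line and 8.98 to 13.2 CPM in the EWS-OCT4 line. Of 8 tested markers, 5 were called lower and 2 higher. Afp and Cubn were at 0 in every EWS-OCT4 library but had only 13 and 4 counts in the EGFP libraries, and neither was tested. The 2 called higher were Gata4, with 6 EGFP and 70 EWS-OCT4 counts, and Fst, with 9 and 38 counts. Both reached the filter level in the EWS-OCT4 line only. Most of the EGFP sum came from the endocytic adaptor gene Dab2 and the transcription factor gene Gata6, which trophoblast also expresses. Dab2 fell from 79.5 ± 6.19 to 1.53 ± 0.673 CPM (SD, n = 3 per line, log2 fold change -5.70, SE 0.25, adjusted p = 6.55e-08), and Gata6 fell from 31.2 ± 5.34 to 1.07 ± 0.653 CPM (log2 fold change -4.85, SE 0.37, adjusted p = 1.83e-06). The 12 fibroblast markers summed to 30.6 to 47.1 and 33.1 to 43.3 CPM in the EGFP and EWS-OCT4 lines, with 2 of 8 tested markers called higher and 2 lower. Within these sums single markers changed in opposite directions. Acta2 fell from 16.2 ± 6.55 to 0.763 ± 1.02 CPM (log2 fold change -4.41, SE 0.67, adjusted p = 2.30e-04), and Postn was at 0 in every EWS-OCT4 library. Thy1 rose from 0.636 ± 0.489 to 17.9 ± 1.45 CPM (log2 fold change 4.81, SE 0.44, adjusted p = 7.14e-06), and Pdgfrb from 2.25 ± 1.11 to 5.51 ± 0.891 CPM (log2 fold change 1.28, SE 0.42, adjusted p = 0.0192). For the 9 endothelial markers the sums were 37.3 to 69.7 and 90.1 to 136 CPM, with 2 of 4 tested markers called in each direction. Most of the EGFP sum was Cdh5, a junction protein gene, at 63.8, 56.5 and 32.7 CPM in the EGFP libraries and 0 in every EWS-OCT4 library. Most of the EWS-OCT4 sum was Pecam1, an adhesion molecule gene that mouse stem cells also express, at 2.98, 4.14 and 2.54 CPM with EGFP and 85.3, 99.7 and 133 CPM with EWS-OCT4. Of the tested markers, 5 of endoderm, 1 of fibroblasts and 3 of endothelium reached the filter level in 1 line only. Emcn had no count in either line, and Cldn5 and Sox18 had none in the EGFP line and only 10 and 1 in the EWS-OCT4 line. The stem cell, trophoblast, endoderm and endothelial markers, and the fibroblast markers that were called, differed between the same libraries as the genes described below. The part of all these markers in the results was not tested. In bulk RNA, fewer cells of a type and less RNA per cell cannot be told apart.

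Promoter windows, from 250 bases before to 50 bases after the annotated start, were taken from RefSeq (GRCm38.p6) for 4 members. Col4a1 and Col4a2 are shown because they lie head to head, with start sites 21 bases apart, so that their windows share 78 bases. The annotated genes overlap at their starts, so the bases before each start lie within the other gene. Lamb1 and Itgb7 are shown for their values, as a laminin gene that fell and as the member with the largest rise. Capitals mark GC boxes (GGGCGG) and CCAAT boxes (CCAAT), searched on both strands, so that they may also appear as CCGCCC or ATTGG.
Col4a1 promoter, chr8:11312777-11313076, minus strand: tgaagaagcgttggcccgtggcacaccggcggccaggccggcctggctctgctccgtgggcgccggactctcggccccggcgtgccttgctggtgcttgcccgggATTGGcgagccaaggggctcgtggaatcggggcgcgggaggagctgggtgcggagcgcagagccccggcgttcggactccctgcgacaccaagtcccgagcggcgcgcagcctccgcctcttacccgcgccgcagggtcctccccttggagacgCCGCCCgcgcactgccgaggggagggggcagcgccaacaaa
Col4a2 promoter, chr8:11312555-11312854, plus strand: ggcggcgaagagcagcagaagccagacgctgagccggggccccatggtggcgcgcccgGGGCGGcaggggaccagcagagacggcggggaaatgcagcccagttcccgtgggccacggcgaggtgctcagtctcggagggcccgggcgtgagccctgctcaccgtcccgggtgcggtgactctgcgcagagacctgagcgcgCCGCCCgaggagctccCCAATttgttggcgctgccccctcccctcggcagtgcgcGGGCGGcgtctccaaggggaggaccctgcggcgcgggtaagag
Lamb1 promoter, chr12:31265043-31265342, plus strand: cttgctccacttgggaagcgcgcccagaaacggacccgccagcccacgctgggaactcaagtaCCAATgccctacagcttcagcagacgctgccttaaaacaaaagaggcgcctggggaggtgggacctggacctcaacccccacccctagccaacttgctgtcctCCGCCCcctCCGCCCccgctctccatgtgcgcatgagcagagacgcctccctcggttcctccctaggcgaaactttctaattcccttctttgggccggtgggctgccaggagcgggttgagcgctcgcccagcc
Itgb7 promoter, chr15:102231886-102232185, minus strand: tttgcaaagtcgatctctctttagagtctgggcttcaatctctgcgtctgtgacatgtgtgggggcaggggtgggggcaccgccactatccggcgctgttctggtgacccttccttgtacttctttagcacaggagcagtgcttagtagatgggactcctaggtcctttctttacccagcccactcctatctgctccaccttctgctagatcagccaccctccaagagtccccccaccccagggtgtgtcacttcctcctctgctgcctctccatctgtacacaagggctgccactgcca
The Col4a2 window held 3 GC boxes and the Col4a1 window 1, each also held 1 CCAAT box, and the stretch that both windows share held 1 GC box and no CCAAT box. The Lamb1 window held 2 GC boxes and 1 CCAAT box. The Itgb7 window held neither motif and had a GC content of 56.3%, against 63.7% for Lamb1 and 73.7% for Col4a2. GC boxes were found in 35.7% and CCAAT boxes in 37.4% of all 32851 windows of this length. The median GC content of all windows was 52.7%.

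Of the 49 members, 33 passed the filter on low counts, among them 18 matrix genes, 14 receptor genes and Col4a3bp. Of the 25 matrix genes, 18 were tested, and 5 rose, 12 fell and 1 (Agrn) did not pass an adjusted p of 0.05. Among all 13467 tested genes 67.4% passed, 33.3% higher and 34.1% lower, so a call by itself is the common outcome in these data. The median log2 fold change was -1.23 for the 18 tested matrix genes and -0.004 for all tested genes. Lama2 and Lama4 passed the filter through the EGFP libraries alone, so they had to differ. Without these genes 5 rose and 10 fell of 16, with a median log2 fold change of -0.99. After the same step 64.5% of all tested genes were called, with a median of -0.002. The genes that fell included both main type IV collagen chains, both tested laminin beta chains, Nid1, Hspg2 and Sparc. The genes that rose included Lama1, Lamc1, Nid2 and Col18a1. The same directions hold in each alternative fit given in the closing section.

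**Figure D1:**
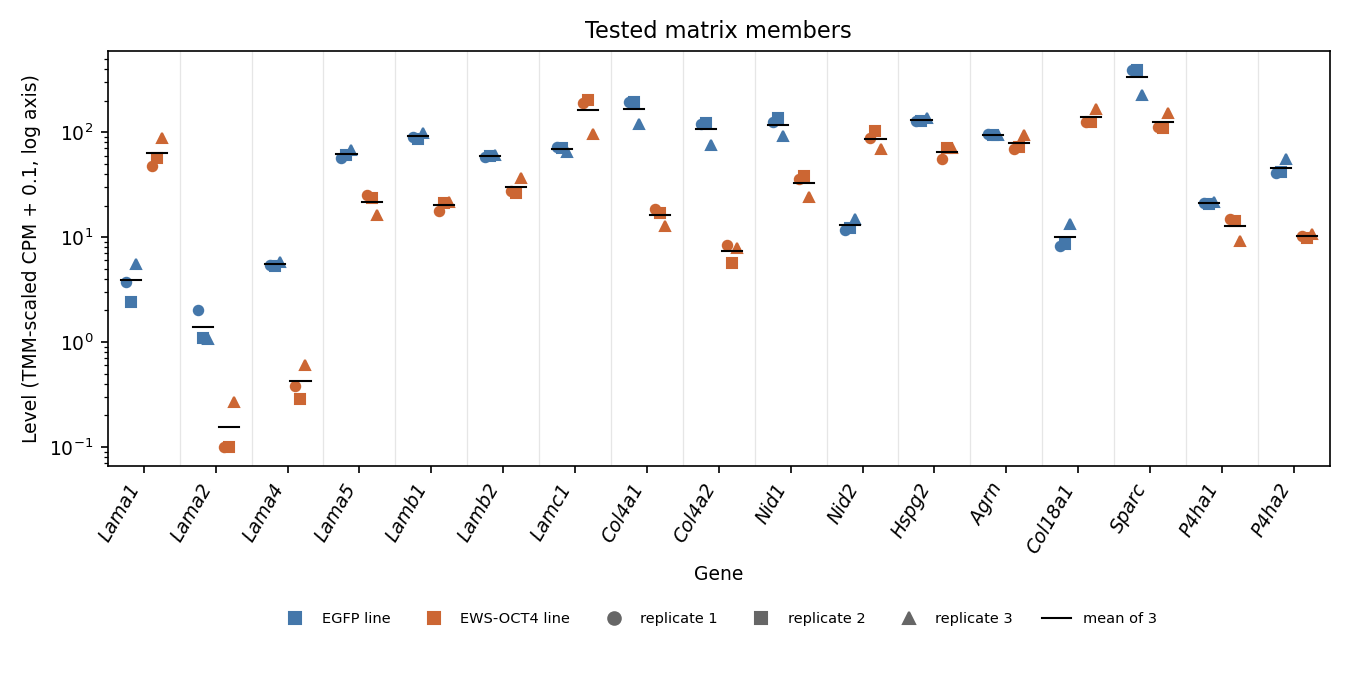
Level of 17 tested matrix genes in each library, as TMM-scaled CPM plus 0.1 on a log axis, with blue for the EGFP line, orange for the EWS-OCT4 line, symbols for the replicates and a line at the mean of 3. Lama1, Lamc1, Nid2 and Col18a1 lie higher in the EWS-OCT4 libraries, the values of Agrn overlap between the lines, and the other 12 genes lie lower.

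The laminin alpha chains carry the domains that bind cells, and Lama1 rose while the other 3 tested genes fell. Lama1 (chromosome 17, 67697259 to 67822647), the alpha chain of embryonic basement membranes, stood at 3.65, 2.31 and 5.398 CPM in EGFP replicates 1, 2 and 3 and 47.9, 56.6 and 87.2 CPM in the EWS-OCT4 replicates. Every EWS-OCT4 library lay above every EGFP library, with replicate 3 the highest in each line, and the gene rose 16.8-fold (log2 fold change 4.07, SE 0.33, adjusted p = 2.80e-06; the quasi-likelihood test of edgeR is used throughout). Lama5 (chromosome 2, 180176373 to 180225859), the most widespread alpha chain of later epithelia and of the early embryo, stood at 56.7, 61.02 and 67.3 CPM in EGFP replicates 1, 2 and 3 and 25.1, 23.3 and 16.04 CPM in the EWS-OCT4 replicates. Its EGFP libraries all lay above the EWS-OCT4 libraries and it fell 2.88-fold (log2 fold change -1.52, SE 0.19, adjusted p = 4.96e-05). Lama4, a chain of vascular and mesenchymal basement membranes, was at 5.29, 5.26 and 5.66 CPM in EGFP replicates 1, 2 and 3 and 0.277, 0.185 and 0.504 CPM in the EWS-OCT4 replicates. Only 11 counts were seen in the 3 EWS-OCT4 libraries against 233 in the EGFP libraries (log2 fold change -4.01). Lama4 passed the filter through the EGFP libraries alone, so it had to differ. Lama2, the alpha chain of muscle, had 55 EGFP and 2 EWS-OCT4 counts, which is 21.5-fold fewer after scaling for depth (exact 95% bounds 5.66 to 182, counting error only). Both EWS-OCT4 counts of Lama2 were in replicate 3, and without that library it was at least 4.69-fold lower, taking a floor of 3 counts per library. Lama3, the alpha chain of epidermal anchoring, had 13 and 10 counts and was not tested.

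The beta and gamma chains complete the laminin trimer. Lamb1 (chromosome 12, 31265234 to 31329644), the beta chain of most early laminins, with its promoter printed above, stood at 89.1, 85.6 and 99.1 CPM in EGFP replicates 1, 2 and 3 and 17.7, 21.2 and 21.7 CPM in the EWS-OCT4 replicates. The lines did not overlap and the gene fell 4.52-fold (log2 fold change -2.17, SE 0.15, adjusted p = 8.45e-07). Lamb2, a beta chain found at synapses and in kidney, stood at 57.9, 59.1 and 60.8 CPM in EGFP replicates 1, 2 and 3 and 27.5, 26.4 and 36.5 CPM in the EWS-OCT4 replicates. It fell 1.96-fold without overlap (log2 fold change -0.97, SE 0.16, adjusted p = 3.61e-04), less than Lamb1. Lamc1, the gamma chain shared by most laminins, stood at 72.3, 71.1 and 64.6 CPM in EGFP replicates 1, 2 and 3 and 189, 203 and 95.05 CPM in the EWS-OCT4 replicates. It rose 2.34-fold (log2 fold change 1.23, SE 0.24, adjusted p = 0.00126), and EWS-OCT4 replicate 3 held about 95.05 CPM, far below the other libraries of its line but above every EGFP library. Lamb3, a beta chain of epithelial laminin, had 6 EGFP and 24 EWS-OCT4 counts, and Lamc3 had 7 and 0, so neither was tested.

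Shares of chains were compared within each class, since a 3′ tag is counted once per transcript whatever its length, although priming and the annotation of 3′ ends can still differ between genes. Lama5 gave 83.4, 87.3 and 84.6% of all laminin alpha counts in EGFP replicates 1, 2 and 3, and 34, 28.9 and 15.4% in the EWS-OCT4 replicates. The Lama1 share moved the other way, from 5.38, 3.31 and 6.78% to 64.9, 70.4 and 83.9%, so the leading alpha chain differed between the lines in every library. Wilson 95% intervals for the Lama1 share lay between 2.37 and 8.33% over the EGFP libraries and between 61.5 and 85.9% over the EWS-OCT4 libraries. Lamb1 held 60.4, 59.2 and 61.95% of laminin beta counts with EGFP and 38.2, 43.98 and 37.02% with EWS-OCT4, with Lamb2 making up nearly all of the rest. Each share without overlap had p = 0.1 in an exact 2-sided permutation test over libraries, the smallest that 3 against 3 allows, and adjusted p = 0.118 over the 20 chains compared, so this design cannot pass 0.05 for a share.

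**Figure D2:**
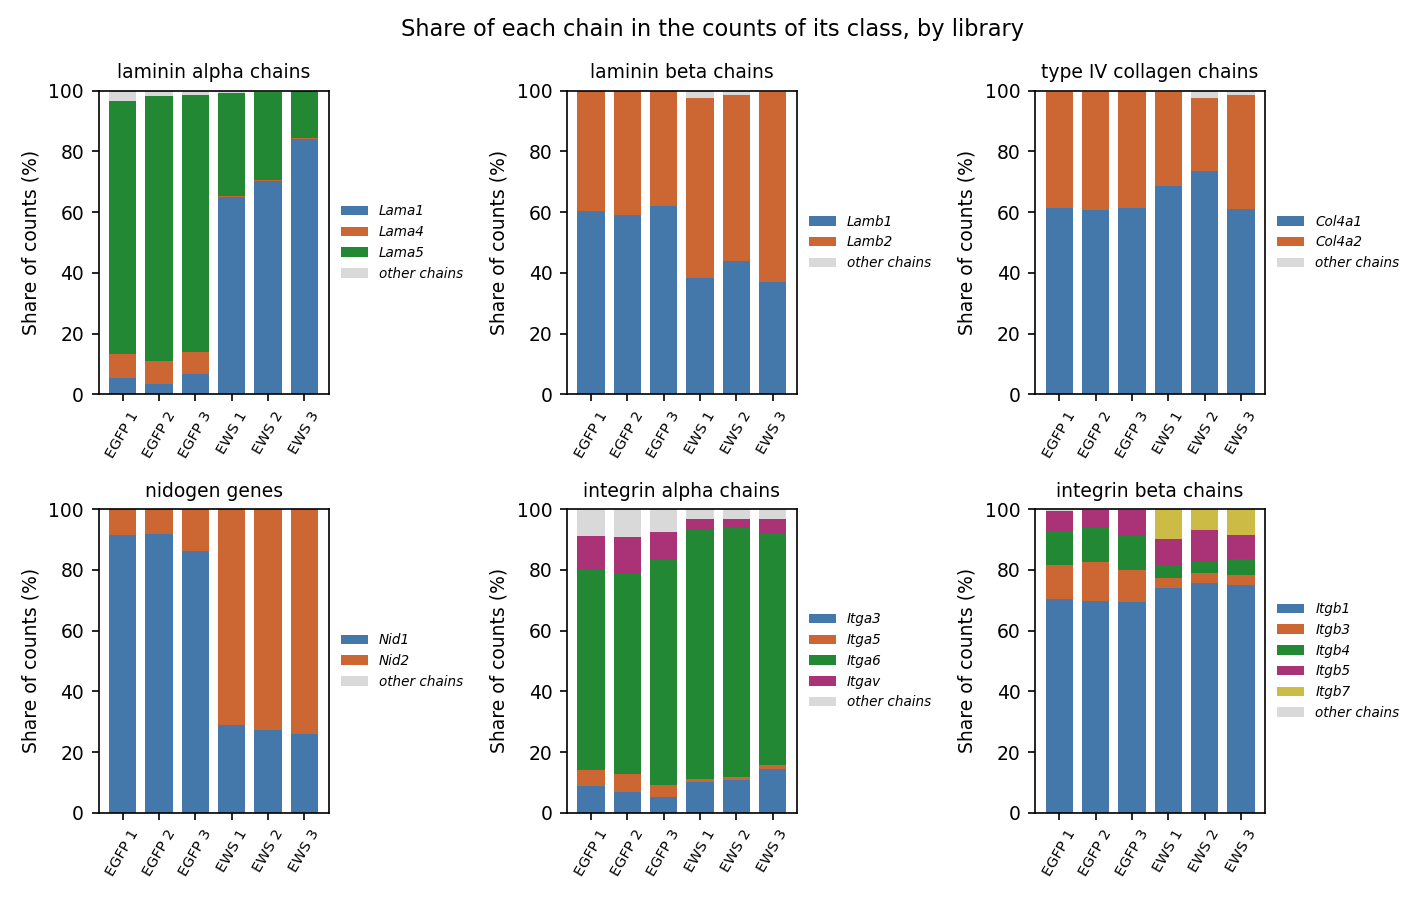
Share of each chain in the counts of its class, in percent, for each of the 6 libraries (EWS stands for the EWS-OCT4 line), with grey for the other chains of the class. Lama5 and Nid1 lead in the EGFP libraries and Lama1 and Nid2 in the EWS-OCT4 libraries, while Itga6 and Itgb1 lead in both lines.

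Both main type IV collagen genes fell, and the chains of specialised collagen IV were barely detected. Col4a1 (chromosome 8, 11198423 to 11312826), which gives most of the chains of the common collagen IV trimer, stood at 192, 192 and 119 CPM in EGFP replicates 1, 2 and 3 and 18.4, 16.8 and 12.8 CPM in the EWS-OCT4 replicates. The EGFP libraries all lay above the EWS-OCT4 libraries, with EGFP replicate 3 below the other 2, and the gene fell 10.5-fold (log2 fold change -3.39, SE 0.23, adjusted p = 7.98e-07). Its partner Col4a2 (chromosome 8, 11312805 to 11449287) stood at 119.9, 124 and 75.2 CPM in EGFP replicates 1, 2 and 3 and 8.302, 5.54 and 7.81 CPM in the EWS-OCT4 replicates. It fell 14.7-fold, again without overlap and with EGFP replicate 3 the lowest of its line (log2 fold change -3.88, SE 0.24, adjusted p = 5.52e-07). Col4a1 and Col4a2 share the start region printed above. In GENCODE M21 the 3′ end of Col4a1 overlaps the antisense gene Gm15418 by 6081 bases, and no symbol in the files matched Gm15418. The 3′ ends of Lama2 and Itga9 also overlap antisense genes without a matching symbol, and that of Itga4 overlaps Cerkl on the opposite strand. Reads of such pairs cannot be told apart where they overlap if counting ignored strand, which the labels do not say. The ratio of Col4a1 to Col4a2 counts was 1.61, 1.55 and 1.59 with EGFP and 2.22, 3.03 and 1.63 with EWS-OCT4, where the exact 95% interval of the lowest, 1.25 to 2.14, included all 3 EGFP ratios (exact 2-sided permutation p = 0.1 over libraries, the smallest possible). The chains of specialised collagen IV, Col4a3, Col4a4, Col4a5 and Col4a6, were near the limit of detection, with 23, 21, 2 and 5 counts in the EGFP libraries against 4, 3, 3 and 1 in the EWS-OCT4 libraries, and none was tested.

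The linker proteins also changed in both directions. Nid1 (chromosome 13, 13437551 to 13512269), a nidogen that binds laminin and collagen IV, stood at 125, 137 and 92.2 CPM in EGFP replicates 1, 2 and 3 and 35.9, 37.9 and 24.2 CPM in the EWS-OCT4 replicates. It fell 3.62-fold without overlap (log2 fold change -1.86, SE 0.21, adjusted p = 2.80e-05). Nid2 (chromosome 14, 19751265 to 19811787), its close relative, stood at 11.7, 12.1 and 14.8 CPM in EGFP replicates 1, 2 and 3 and 87.997, 102 and 69.2 CPM in the EWS-OCT4 replicates. It rose 6.68-fold without overlap (log2 fold change 2.74, SE 0.19, adjusted p = 9.08e-07). Nid2 gave 8.57, 8.13 and 13.9% of nidogen counts in the EGFP libraries, as against 71.03, 72.9 and 74.1% in the EWS-OCT4 libraries, a comparison chosen after its values were seen. In GENCODE M21 the 3′ end of Nid2 overlaps that of Rtraf on the opposite strand by 437 bases, and the labels do not say whether counting used strand. Rtraf, listed in the files as 2700060E02Rik, stood at 129, 121 and 137 CPM with EGFP and 307, 327 and 284 CPM with EWS-OCT4, so reads of Nid2 and Rtraf cannot be told apart where they overlap.

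Among the heparan sulfate proteoglycans, Col18a1 (chromosome 10, 77052178 to 77166548), the collagen from which endostatin is cut, stood at 8.05, 8.56 and 13.1 CPM in EGFP replicates 1, 2 and 3 and 126, 126 and 166 CPM in the EWS-OCT4 replicates. It rose 13.99-fold, the largest rise of a matrix gene after Lama1, and the lines did not overlap (log2 fold change 3.81, SE 0.22, adjusted p = 3.32e-07). Its 3′ end overlaps Slc19a1 on the opposite strand, which was at 18.9, 15.1 and 16.9 CPM in the EGFP and 14.02, 15.2 and 14.1 CPM in the EWS-OCT4 libraries, so reads of these genes cannot be told apart there either. Hspg2, which encodes perlecan, stood at 129, 128 and 138 CPM in EGFP replicates 1, 2 and 3 and 55.6, 69.9 and 70.1 CPM in the EWS-OCT4 replicates. It fell 2.02-fold without overlap (log2 fold change -1.01, SE 0.13, adjusted p = 8.46e-05). Agrn, the gene of agrin, stood at 95.2, 93.6 and 93.97 CPM in EGFP replicates 1, 2 and 3 and 69.5, 72.8 and 94.3 CPM in the EWS-OCT4 replicates. Its lines overlapped through EWS-OCT4 replicate 3 and it did not pass the test (log2 fold change -0.26, SE 0.14, adjusted p = 0.138), whereas replicates 1 and 2 alone gave a log2 fold change of -0.39 with adjusted p = 4.26e-04, and leaving out EWS-OCT4 replicate 3 gave -0.40 with adjusted p = 0.00556.

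Sparc (chromosome 11, 55394500 to 55423183), a secreted collagen chaperone that is abundant in parietal endoderm and trophoblast, stood at 394, 395 and 228 CPM in EGFP replicates 1, 2 and 3 and 112, 109.5 and 152 CPM in the EWS-OCT4 replicates. It fell 2.72-fold without overlap, although EGFP replicate 3 lay well below the other EGFP libraries (log2 fold change -1.45, SE 0.22, adjusted p = 2.13e-04). The prolyl 4-hydroxylases modify collagen chains in the endoplasmic reticulum so that their triple helix is stable. P4ha2 stood at 40.8, 41.6 and 55.5 CPM in EGFP replicates 1, 2 and 3 and 10.1, 9.698 and 10.7 CPM in the EWS-OCT4 replicates. The lines did not overlap and it fell 4.53-fold (log2 fold change -2.18, SE 0.18, adjusted p = 3.21e-06). P4ha1 stood at 21.3, 20.6 and 21.5 CPM in EGFP replicates 1, 2 and 3 and 14.8, 14.04 and 9.07 CPM in the EWS-OCT4 replicates. It fell 1.67-fold without overlap (log2 fold change -0.74, SE 0.21, adjusted p = 0.0107), a change that did not pass against a threshold of 1.5-fold (adjusted p = 0.167). Col4a3bp, the ceramide transfer gene that matched by name only, stood at 51.9, 58.1 and 48.8 CPM in EGFP replicates 1, 2 and 3 and 25.5, 26.6 and 14.7 CPM in the EWS-OCT4 replicates and fell 2.38-fold (log2 fold change -1.25, SE 0.22, adjusted p = 5.51e-04).

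Of the 23 receptor genes, 14 were tested, of which 4 rose, 7 fell and 3 (Itga4, Itga9 and Itgb5) did not pass, against the same 67.4% of all tested genes called. The median log2 fold change was -0.60 for these 14 genes. Itga2b and Itgb7 passed the filter through the EWS-OCT4 libraries alone, so they had to differ. Without these genes 2 rose and 7 fell of 12, with a median log2 fold change of -1.03. After the same step 64.5% of all tested genes were called, with a median of -0.002. The libraries of the lines did not overlap for 11 of the 14 tested receptor genes and for 17 of the 18 tested matrix genes, against 72.7% of all tested genes. Without the genes that reached the filter level in 1 line only, these counts were 9 of 12 and 15 of 16, against 70.2% of all tested genes after the same step. The genes that rose were Itga3, Itga6, Itga2b and Itgb7, and those that fell were Itga5, Itga7, Itgav, Itgb1, Itgb3, Itgb4 and Dag1.

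**Figure D3:**
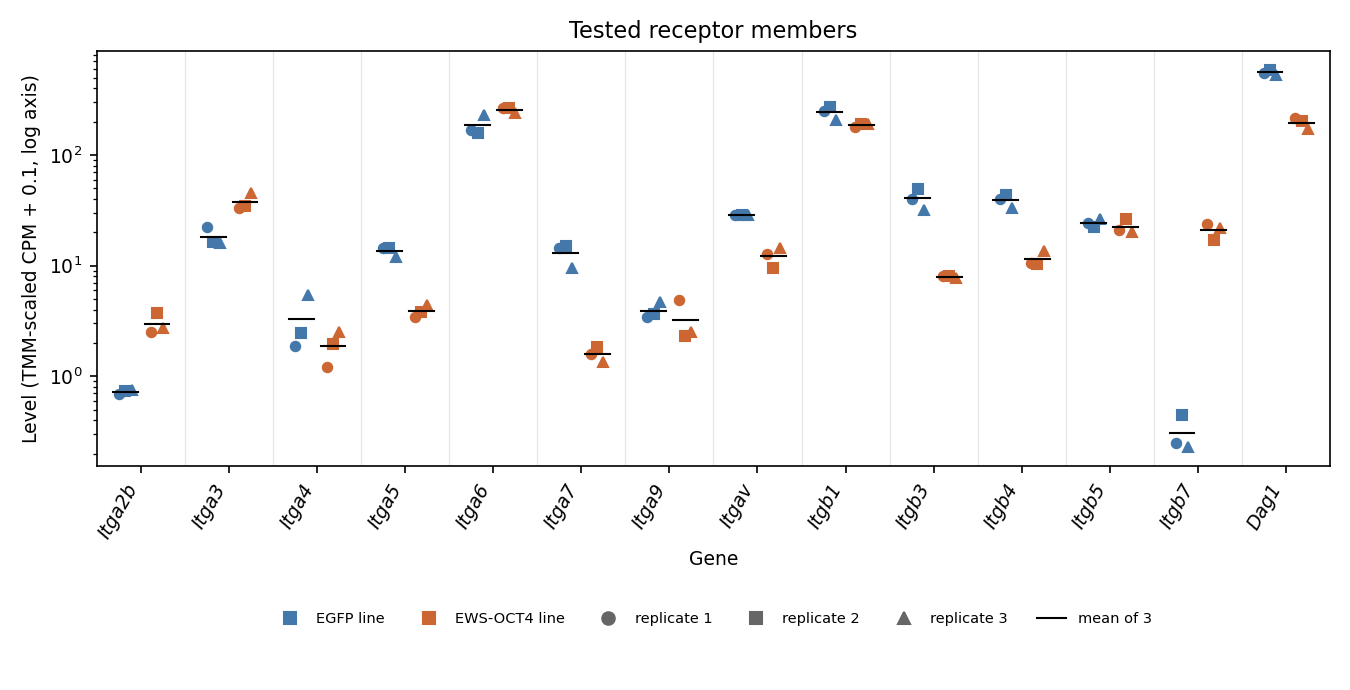
Level of each tested receptor gene in each library, as TMM-scaled CPM plus 0.1 on a log axis, with colours and symbols as for the matrix genes. Itgb7 lies near the floor in the EGFP libraries and between 17.0 and 23.7 CPM in the EWS-OCT4 libraries, and the lines overlap for Itga4, Itga9 and Itgb5.

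Laminin-binding integrins contain the alpha chains Itga3, Itga6 or Itga7. Itga6 (chromosome 2, 71745616 to 71858416), which pairs with Itgb1 or Itgb4, stood at 169.7, 157 and 228 CPM in EGFP replicates 1, 2 and 3 and 267, 266 and 238 CPM in the EWS-OCT4 replicates. The lines did not overlap, but EGFP replicate 3 lay close to the EWS-OCT4 libraries, and the rise was small at 1.39-fold (log2 fold change 0.47, SE 0.15, adjusted p = 0.0184). That call was lost without EGFP replicate 1 or 2 or without EWS-OCT4 replicate 1 or 2, with adjusted p of 0.0913, 0.101, 0.0554 and 0.0543. It was kept without replicate 3 of either line. Without EGFP replicate 3 the rise was larger (log2 fold change 0.65, adjusted p = 0.0015). Replicates 1 and 2 alone also kept the call, with a larger rise than over all replicates. Itga3, which pairs with Itgb1, stood at 22.4, 16.3 and 15.9 CPM in EGFP replicates 1, 2 and 3 and 32.7, 34.8 and 45.01 CPM in the EWS-OCT4 replicates. It rose 2.06-fold without overlap (log2 fold change 1.04, SE 0.20, adjusted p = 9.14e-04). Itga7, a laminin receptor chain known from muscle, stood at 14.3, 14.9 and 9.49 CPM in EGFP replicates 1, 2 and 3 and 1.48, 1.75 and 1.26 CPM in the EWS-OCT4 replicates. It fell 8.58-fold, the largest fall of a tested receptor gene, without overlap (log2 fold change -3.10, SE 0.31, adjusted p = 1.18e-05). The 3′ ends of Itga7 and Mettl7b overlap by 9 bases on opposite strands, and Mettl7b was at 3.51, 4.63 and 3.51 CPM with EGFP against 0.369, 1.02 and 0.924 CPM with EWS-OCT4. Itgb4, the beta chain of hemidesmosomes that pairs with Itga6, stood at 39.7, 43.8 and 32.97 CPM in EGFP replicates 1, 2 and 3 and 10.5, 10.3 and 13.5 CPM in the EWS-OCT4 replicates. It fell 3.38-fold without overlap (log2 fold change -1.76, SE 0.19, adjusted p = 1.85e-05).

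Integrins that bind fibronectin and vitronectin through an RGD sequence use Itga5, Itgav and several beta chains. Itga5, the chain of the main fibronectin receptor, stood at 14.4, 14.3 and 11.9 CPM in EGFP replicates 1, 2 and 3 and 3.32, 3.69 and 4.28 CPM in the EWS-OCT4 replicates. It fell 3.58-fold without overlap (log2 fold change -1.84, SE 0.24, adjusted p = 6.93e-05). Itgav stood at 28.8, 28.8 and 28.4 CPM in EGFP replicates 1, 2 and 3 and 12.5, 9.42 and 14.4 CPM in the EWS-OCT4 replicates. The EGFP libraries were nearly equal and lay above all EWS-OCT4 libraries, a fall of 2.36-fold (log2 fold change -1.24, SE 0.19, adjusted p = 2.32e-04). Itgb3 (chromosome 11, 104608000 to 104670476), a partner of Itgav and Itga2b, stood at 40.3, 49.4 and 31.7 CPM in EGFP replicates 1, 2 and 3 and 8.02, 7.94 and 7.64 CPM in the EWS-OCT4 replicates. It fell 5.14-fold without overlap (log2 fold change -2.36, SE 0.20, adjusted p = 4.02e-06). Itgb5, another partner of Itgav, stood at 24.01, 22.3 and 26.1 CPM in EGFP replicates 1, 2 and 3 and 20.9, 26.04 and 20.2 CPM in the EWS-OCT4 replicates with overlapping lines (log2 fold change -0.11, SE 0.17, adjusted p = 0.587). Itga2b, the platelet chain that joins Itgb3, had 27 EGFP and 96 EWS-OCT4 counts, a rise at a level of at most 3.602 CPM (log2 fold change 2.18). It passed the filter through the EWS-OCT4 libraries alone, so it had to differ.

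Itgb1 (chromosome 8, 128685654 to 128733200), the beta chain that joins most alpha chains, stood at 251, 268 and 209 CPM in EGFP replicates 1, 2 and 3 and 179, 190.2 and 192 CPM in the EWS-OCT4 replicates. The lines did not overlap, with EGFP replicate 3 the nearest to the EWS-OCT4 libraries, and the fall was 1.299-fold (log2 fold change -0.38, SE 0.12, adjusted p = 0.0209). The call was lost without EGFP replicate 1 or 2 or without EWS-OCT4 replicate 1 or 2, with adjusted p of 0.0655, 0.0884, 0.078 and 0.0534. It was kept without replicate 3 of either line. Without EGFP replicate 3 the fall was larger (log2 fold change -0.48, adjusted p = 0.00375). Replicates 1 and 2 alone also kept the call, with a larger fall than over all replicates. Itgb7 (chromosome 15, 102215995 to 102231944), a beta chain known from lymphocytes that pairs with Itga4 or Itgae, stood at 0.149, 0.351 and 0.1301 CPM in EGFP replicates 1, 2 and 3 and 23.7, 16.99 and 21.9 CPM in the EWS-OCT4 replicates. Its EGFP libraries together held 9 counts against 702 with EWS-OCT4, the largest rise among the members tested (log2 fold change 6.58). Itgb7 passed the filter through the EWS-OCT4 libraries alone, so it had to differ. Its partner Itga4 stood at 1.79, 2.38 and 5.33 CPM in EGFP replicates 1, 2 and 3 and 1.11, 1.85 and 2.44 CPM in the EWS-OCT4 replicates, with overlapping lines (log2 fold change -0.82, SE 0.51, adjusted p = 0.181), and most of its EGFP level was in replicate 3, without which the log2 fold change was -0.22. Itga9, which pairs with Itgb1, ranged from 2.22 to 4.796 CPM over the 6 libraries (log2 fold change -0.28, SE 0.39, adjusted p = 0.532).

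Within the alpha subunits, Itga6 gave 65.7, 65.8 and 74.3% of counts with EGFP and 81.9, 81.9 and 76.2% with EWS-OCT4. Itgav gave 11.1, 12.1 and 9.24% and 3.85, 2.904 and 4.61%, and Itga3 8.69, 6.82 and 5.18% and 10.1, 10.7 and 14.4%. Among beta subunits, Itgb1 gave 70.3, 69.7 and 69.5% and 73.8, 75.6 and 75.1%. The share of Itgb3 went from 11.3, 12.8 and 10.6% to 3.31, 3.16 and 2.995%, that of Itgb4 from 11.1, 11.4 and 10.96% to 4.34, 4.11 and 5.2995%, and that of Itgb7 from 0.0417, 0.09104 and 0.0432% to 9.78, 6.76 and 8.59%. Replicates 1 and 2 alone gave a difference of 2.64 percentage points for Itga3, against 4.85 over all replicates. None of the integrin shares named so far overlapped between the lines, each with p = 0.1 in the exact permutation test over libraries. The Itga5 share did not overlap either, at 5.57, 5.996 and 3.87% with EGFP and 1.02, 1.14 and 1.37% with EWS-OCT4. The Itgb5 share overlapped, at 6.72, 5.79 and 8.67% with EGFP and 8.64, 10.4 and 7.93% with EWS-OCT4 (exact permutation test, p = 0.3). Shares within a class depend on each other, so the Itgb1 share was higher with EWS-OCT4 although Itgb1 itself fell. Itga6 and Itgb1 were the leading subunits in all 6 libraries.

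Dag1 (chromosome 9, 108204634 to 108263958) encodes dystroglycan, a receptor that binds laminin, perlecan and agrin through its sugar chains and dystrophin or utrophin inside the cell. It stood at 555, 590.2 and 529 CPM in EGFP replicates 1, 2 and 3 and 214, 201 and 172 CPM in the EWS-OCT4 replicates. The lines did not overlap and it fell 2.85-fold (log2 fold change -1.51, SE 0.12, adjusted p = 2.93e-06).

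The other 9 receptor genes had too few counts for the test. Itga1, a collagen receptor chain, had 57 counts in the EGFP libraries and none in the EWS-OCT4 libraries, at least 4.93-fold lower with a floor of 3 counts per library. Itga8, a receptor chain for nephronectin, had none in the EGFP libraries and 14 in the EWS-OCT4 libraries, at least 1.99-fold higher. Itga11 had 25 and 1 counts, Itgb2 31 and 1, Itgb6 22 and 2, Itga10 6 and 24, and Itga2 8 and 0 in the EGFP and EWS-OCT4 libraries. Itgb2l and Itgb8 had no count in any library. Floors cover counting error only.

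**Figure D4:**
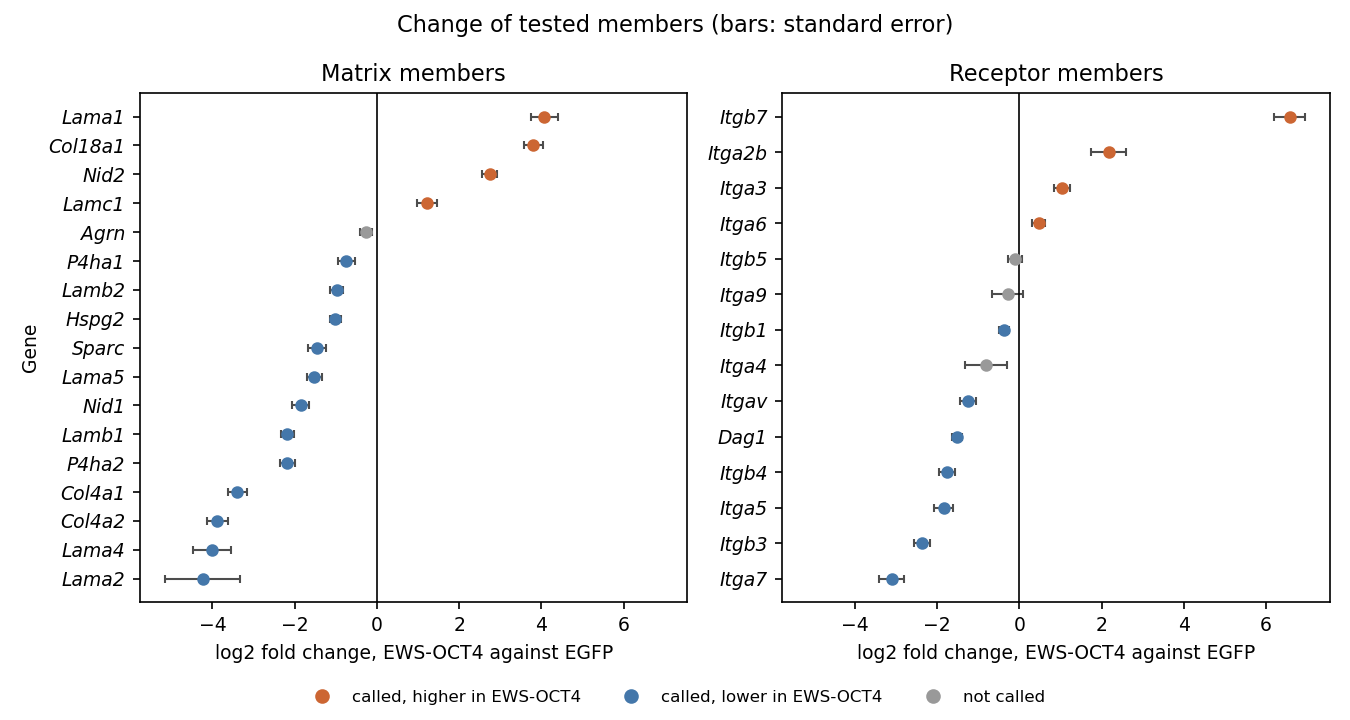
Log2 fold change of 17 tested matrix genes and 14 tested receptor genes, EWS-OCT4 against EGFP, with bars for the standard error and colours for the call at an adjusted p of 0.05. Matrix genes range from Lama2 at -4.24 to Lama1 at 4.07, and receptor genes from Itga7 at -3.10 to Itgb7 at 6.58.

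Related genes were read from the same fit over all genes. Partners of integrins in the membrane and the cytoplasm link them to actin and to signalling. Of 35 such genes of the adhesion complex 33 were tested, with 3 higher, 23 lower and 7 not called (median log2 fold change -1.30), where 34.1% of all tested genes were lower. Nedd9 reached the filter level in the EGFP line only, so it had to differ. Without it 3 rose and 22 fell of 32 (median -1.23), where 64.5% of all tested genes were called after the same step. Lims2, an adaptor of integrin-linked kinase, fell from 74.99 ± 26.9 to 2.25 ± 0.772 CPM (log2 fold change -5.06, SE 0.35, adjusted p = 1.02e-06). Zyx, the gene of zyxin at actin fibre ends, fell from 108 ± 25.4 to 3.87 ± 0.813 CPM (log2 fold change -4.80, SE 0.25, adjusted p = 1.64e-07). Tes, a zyxin-binding protein, fell from 70.8 ± 4.99 to 6.61 ± 0.0948 CPM (log2 fold change -3.42, SE 0.15, adjusted p = 6.55e-08), the tyrosine kinase gene Src from 64.02 ± 6.91 to 8.58 ± 2.51 CPM (log2 fold change -2.90, SE 0.23, adjusted p = 2.17e-06), and the actin linker Tns1 from 179 ± 46.8 to 26.2 ± 5.26 CPM (log2 fold change -2.77, SE 0.23, adjusted p = 3.12e-06). The number of calls in this list stayed within 1.5 times under every alternative run.

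Genes that fold, modify and cross-link collagen were called in both directions. Of 24 in the files, 20 were tested, 7 rose, 8 fell and 5 did not pass (median 0.03), near the 33.3% higher and 34.1% lower of all tested genes. Loxl1 reached the filter level in the EWS-OCT4 line only, so it had to differ. Without it 6 rose and 8 fell of 19 (median -0.06), where 64.5% of all tested genes were called after the same step. Serpinh1, an endoplasmic reticulum chaperone of collagen, fell from 118 ± 7.99 to 15.5 ± 4.22 CPM (log2 fold change -2.93, SE 0.20, adjusted p = 1.02e-06). Tgm2, a transglutaminase that cross-links matrix, fell from 438 ± 103 to 65.1 ± 9.06 CPM (log2 fold change -2.75, SE 0.19, adjusted p = 1.11e-06). In the other direction, Fkbp10, a prolyl isomerase that acts on collagen, rose from 1.31 ± 0.194 to 17.4 ± 1.16 CPM (log2 fold change 3.73, SE 0.25, adjusted p = 8.51e-07), the lysyl hydroxylase gene Plod2 from 8.62 ± 1.17 to 38.6 ± 1.06 CPM (log2 fold change 2.16, SE 0.17, adjusted p = 2.29e-06), and the collagen glycosyltransferase gene Colgalt1 from 49.98 ± 6.05 to 158 ± 8.64 CPM (log2 fold change 1.66, SE 0.13, adjusted p = 2.72e-06).

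Of 30 other basement membrane and adhesive matrix genes, 16 were tested, 5 rose, 7 fell and 4 did not pass (median -0.47), beside 33.3% higher and 34.1% lower among all tested genes. Of the 16, 3 reached the filter level in 1 line only, and without them 4 rose and 5 fell of 13 (median -0.18). Without EGFP replicate 2, or without EWS-OCT4 replicate 1, 3 rose. Tinagl1, a matrix protein that binds laminin and integrins, fell from 824 ± 126 to 7.47 ± 2.99 CPM (log2 fold change -6.79, SE 0.30, adjusted p = 6.36e-08). Smoc1, a SPARC-related matrix protein, fell from 26.7 ± 7.39 to 4.01 ± 0.453 CPM (log2 fold change -2.74, SE 0.25, adjusted p = 7.25e-06). Its relative Smoc2 went from 12.8 ± 7.43 to 0.361 ± 0.336 CPM (log2 fold change -5.12), but it passed the filter through the EGFP libraries alone, so it had to differ. Cyr61, a secreted integrin ligand, fell from 18.1 ± 5.65 to 1.54 ± 0.838 CPM (log2 fold change -3.56, SE 0.40, adjusted p = 2.82e-05). Spp1, which encodes the RGD protein osteopontin, rose from 5.202 ± 3.796 to 129 ± 29.7 CPM (log2 fold change 4.62, SE 0.42, adjusted p = 6.71e-06). Fn1, whose product fibronectin is a ligand of the receptor that contains Itga5, was chosen after its values were seen and rose from 92.8 ± 14.4 to 498 ± 27.2 CPM (log2 fold change 2.42, SE 0.14, adjusted p = 3.43e-07).

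Non-integrin receptors and the dystroglycan complex formed the last list. Of 26 genes, 24 were tested, 4 rose, 14 fell and 6 did not pass (median -1.20), beside 33.3% higher and 34.1% lower among all tested genes. Cd44 reached the filter level in the EGFP line only, so it had to differ. Without it 4 rose and 13 fell of 23 (median -1.15), where 64.5% of all tested genes were called after the same step. Lgals3, a lectin that binds laminin and integrin sugars, fell from 688 ± 151 to 4.25 ± 1.46 CPM (log2 fold change -7.34, SE 0.29, adjusted p = 3.71e-08). Sgce, a sarcoglycan, fell from 61.7 ± 15.6 to 3.88 ± 2.17 CPM (log2 fold change -4.00, SE 0.38, adjusted p = 8.67e-06), the syndecan gene Sdc4 from 560.5 ± 43.5 to 50.03 ± 5.61 CPM (log2 fold change -3.49, SE 0.14, adjusted p = 3.69e-08), and the collagen receptor kinase gene Ddr1 from 313 ± 30.5 to 44.4 ± 6.88 CPM (log2 fold change -2.82, SE 0.15, adjusted p = 1.93e-07). Bcam, a receptor whose ligand is the laminin chain encoded by Lama5, rose from 7.04 ± 1.23 to 56.4 ± 8.02 CPM (log2 fold change 3.00, SE 0.19, adjusted p = 6.24e-07).

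**Figure D5:**
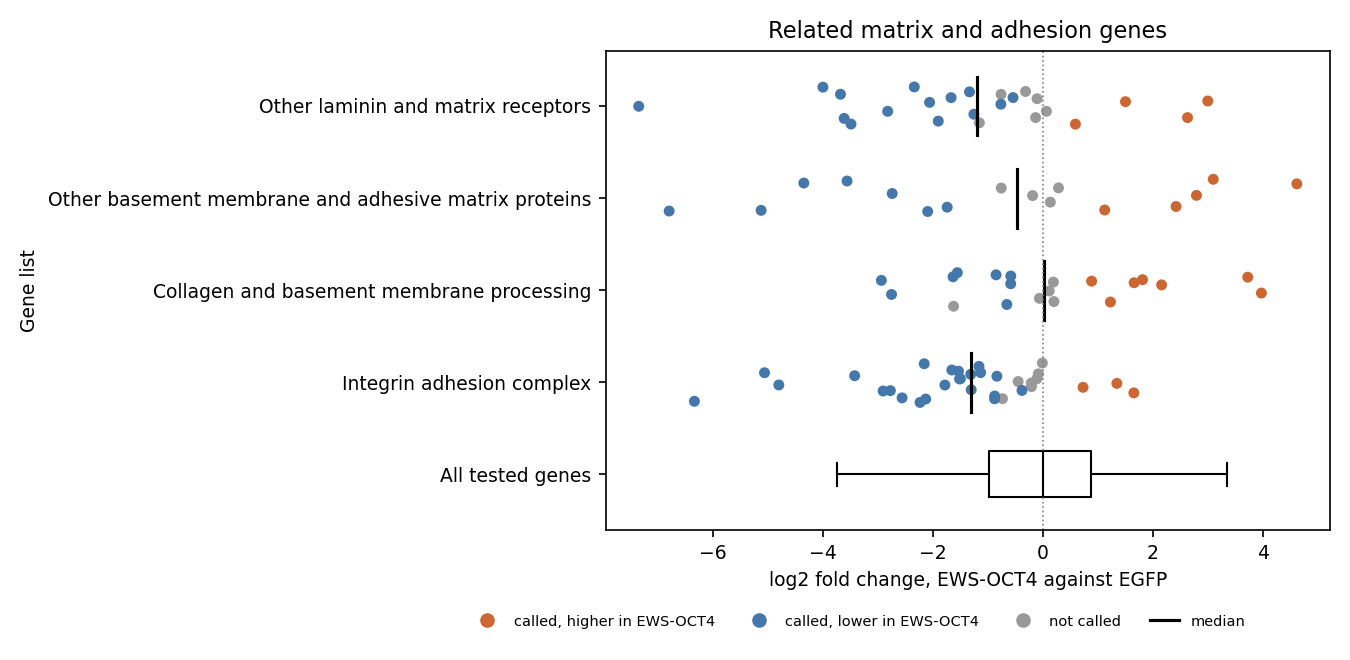
Log2 fold change of each tested gene in the lists of related genes, with colours for the call and a black line at the median of the list, and below them a box plot of all 13467 tested genes (quartiles, with whiskers at percentiles 5 and 95). The medians lie at -1.30 for the adhesion complex, 0.03 for collagen processing, -0.47 for other matrix proteins and -1.20 for other receptors.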

How the data were processed

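The authors deposited raw counts of 3′ tags, with a separate file of symbols and counts for each library. Per the submitters' processing notes, Bowtie2, edgeR and the build mm10 were used, with no version or role named, while counter, annotation and strand setting were not found in labels or headers. Files had 23282 lines for 23238 symbols. The 79 lines of 35 repeated symbols were summed. Samples were grouped by title. Depth ran from 10978025 to 14935887 counts per library.

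Counts were scaled by TMM and tested in edgeR 4.0.16 (filterByExpr, minimum count 10 and total 15, robust quasi-likelihood F test, 2-sided, Benjamini-Hochberg over 13467 genes, threshold 0.05). Of 23238 symbols 9771 were not tested. The SE is the log2 fold change divided by the square root of F. The test was tested on simulated data. Positions are from GENCODE M21 (GRCm38, the assembly of mm10), and 35 of 49 members matched a RefSeq promoter. Members and lists were chosen with earlier results of these data known. Members called with a mean of at least 5 CPM in either line are given by library. Of each related list the 5 largest called changes without overlap and with at least 10 CPM are named. The marker lists are given as sums. Single markers are named where they made up most of a sum, had no count in a line, were endoderm markers called higher, or were fibroblast markers that were called. Alternatives covered libraries, replicate block, scaling, filters, DESeq2 1.42.0, limma-voom (3.58.1), a 1.5-fold threshold and adjusted p of 0.01. For 1 matrix gene among the members the values are not reported here. The nidogen shares and Fn1 were added after values were seen, and the ratio of Col4a1 to Col4a2 was not planned.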

Additional observations from a re-analysis of the deposited data

How the results depend on the processing

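Over all fits run, matrix genes called higher numbered 4 to 5 and lower 10 to 13, and receptor genes 3 to 5 and 5 to 10. Of 553 member results in alternative fits, 535 kept direction and side of the threshold, 14 lost the call (Itga6, Itgb1 and P4ha1, including the test against 1.5-fold and the adjusted p of 0.01), 2 gained it (Agrn) and 2 reversed. With replicates 1 and 2 alone the uncalled genes Itga9 and Itgb5 stood at 0.0354 and 0.0401, and the integrin alpha shares of Itga3, Itga6 and Itgav differed between the lines by 2.64, 16.2 and -8.22 percentage points. The cause was not tested. A mean of at least 10 CPM, which tests fewer genes, left 4 higher collagen processing genes, 3 higher and 2 lower other matrix genes, and 9 lower other receptors. Against 1.5-fold, 4 collagen processing genes were lower, and at an adjusted p of 0.01, 3 other matrix genes were higher. Leaving out 1 library gave 3 to 6 higher other matrix genes, the lowest without EGFP replicate 2 or EWS-OCT4 replicate 1. With a replicate block, 4387 genes were higher and 4581 lower, with 5 and 12 matrix and 4 and 7 receptor genes, and no member's call changed. Whether the numbers pair the libraries was not settled. Same-numbered deviations correlated across genes at 0.0402, 0.05204 and 0.152 for replicates 1, 2 and 3. Replicate 3 of each line correlated best with the other replicate 3, and at -0.0903 to -0.102 with replicates 1 and 2. Replicates 1 and 2 correlated slightly better with the other number (0.0755 and 0.0753). A factor shared by the replicate 3 libraries was not tested. Depth limits the genes that were not tested, where a few counts decide.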

Other observations

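Motifs were counted on both strands of the 41 RefSeq promoter windows of 35 members, some of which have more than 1 window. GGGCGG was present in 24 of them (58.5%, against 35.7% of all windows) and CCAAT in 10 (24.4% against 37.4%). TATAAA was present in 1 (13.6% of all windows) and the AP-1 sequence TGANTCA in 2 (7.81%). The octamer ATGCAAAT and the GATA sequence AGATAA were in none of these windows, and in 1.74% and 11.2% of all windows. These letters were searched only in these windows, and no match says nothing of binding elsewhere.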
